A study of Equus caballus with 4 samples.

Results

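The genes described are members of the JAK-STAT pathway. They are the Janus kinases JAK1, JAK2 and TYK2, the transcription factors STAT2, STAT3, STAT5B and STAT6, and the inhibitors SOCS1 and SOCS3. The rule took every non-control probe whose gene name in the array files equals 1 of these 9 symbols, and it found 10 of the 43603 probes, from 6 genes. STAT3 is spelled STAT-3 in the files, and TYK2 carries a transcript identifier with the description tyrosine kinase 2. Their 9 probes were added, which gave 19 probes of 8 genes among the 24912 gene names on the array. No probe was matched to SOCS1, which is not analysed here.

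The RNA came from horse satellite cells (ESC), which are the stem cells of muscle, obtained from m. semitendinosus and differentiated to day 3. HMB is a breakdown product of leucine; treated cells received 50 µM of it for 24 h, with 3 mM H2O2 in the last 1 h, whereas control cells received the same H2O2 without HMB, so cells without H2O2 do not enter these ratios. On each of 4 Agilent horse arrays the HMB-treated RNA was labeled with Cy5 and the control RNA with Cy3, and each array gave 1 ratio per spot. The dyes were not swapped, so treatment and dye cannot be told apart, and all 4 arrays lay on 1 slide. The labels call the arrays biological replicates but number the control as replicate 1 on each. The methods describe choosing 1 culture among those of the horses for its viability and fusion, so the 4 arrays need not stand for 4 horses, and the p-values measure only the spread between these 4 arrays. In such bulk RNA, fewer cells of a type and less RNA per cell cannot be told apart.

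In the JAK-STAT pathway, a cytokine or interferon binds its receptor, the kinases held on the receptor phosphorylate it and the STAT proteins, and the STAT proteins enter the nucleus as dimers and switch on genes. STAT2 works with IRF9 in the answer to type I interferon, STAT3 answers the interleukin 6 family, and STAT6 answers interleukins 4 and 13. SOCS proteins are made in response and shut the kinases down. In satellite cells, signaling through JAK2 and STAT3 is known to act on proliferation and differentiation.

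Every member probe is 60 bases long, and the probes below, each with at least 1 reading frame free of stop codons, are shown as examples. For JAK1, STAT2 and STAT3 they are not the brightest probe, on which the ratio of the gene rests. The STAT2 sequence is that of the probe with a mean log2 ratio of 0.92. No JAK2 or STAT6 sequence is shown. Coordinates are those of EquCab1 in the files. The JAK1 sequence lies on chromosome 5 at chr5:68880402-68881206, a span of 805 bases, so it crosses a gap in the genome, as a probe over an exon junction does. TYK2 lies at chrUn:145070782-145070841 on the unplaced scaffolds. The first STAT3 sequence lies at chr11:19416516-19416575 and stands for 5 probes that are shifted by single bases; the capitals mark the 56 bases that all 5 share. The other STAT3 sequence lies upstream at chr11:19413034-19413093. The STAT2 sequence lies at chrUn:195519374-195519433, and its capitals mark the 58 bases shared by all 3 STAT2 probes. SOCS3 lies at chr11:2992064-2992123.
JAK1: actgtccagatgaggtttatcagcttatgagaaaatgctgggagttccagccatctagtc
TYK2: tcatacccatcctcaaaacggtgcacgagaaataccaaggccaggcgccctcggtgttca
STAT3 (5 probes): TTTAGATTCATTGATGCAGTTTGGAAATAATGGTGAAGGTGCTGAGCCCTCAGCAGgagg
STAT3 (upstream probe): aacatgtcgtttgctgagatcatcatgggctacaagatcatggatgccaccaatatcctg
STAT2 (3 probes): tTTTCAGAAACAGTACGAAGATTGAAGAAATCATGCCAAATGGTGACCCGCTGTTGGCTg
SOCS3: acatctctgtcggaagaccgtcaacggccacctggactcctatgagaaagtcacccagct

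Because probes of STAT2 and 5 of the 8 STAT3 probes overlap almost completely, they are repeat readings of the same RNA stretch and not separate evidence. The longest run that a member probe shares with a probe of another gene name, on either strand, is 16 bases, for SOCS3. It is between 13 and 15 bases for the other members. The JAK2 probes lie next to each other at chr23:16912247-16912306 and chr23:16912308-16912367, and the STAT6 probe lies at chr6:71737700-71737759. STAT3 and STAT5B lie on the same stretch of chromosome 11, with the STAT5B probe at chr11:19506283-19506342.

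A probe was tested where its Cy3 signal or its Cy5 signal stood well above background on every array, as 24670 probes did. A probe was called where limma's adjusted p was at most 0.05 and the fold change (FC) was at least 1.3. Of all tested probes, 28.6% were called, 12.1% as higher and 16.4% as lower in HMB-treated cells, and the median log2 ratio was -0.07. Of the 19 member probes, 17 were tested and 14 were called, all as higher. With only the exact gene names, 8 of 10 probes were tested and 6 were called. At the level of genes, with the brightest tested probe for each, 4 of 6 were higher (JAK2, STAT2, STAT3 and STAT6), and JAK1 and TYK2 were not called. Among the 13909 gene names tested in the same way, 12.3% were higher and 16.3% were lower. The ratios are relative to the normalization within each array: scaled to the spike-in RNA, 5.05% of probes were higher and 70.2% lower. By the brightest probe of each gene under this scaling, JAK2 was the one member called as higher, and JAK1 and TYK2 were called as lower. Among the member probes, 3 were then called as higher and 3 as lower.

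**Figure D1:**
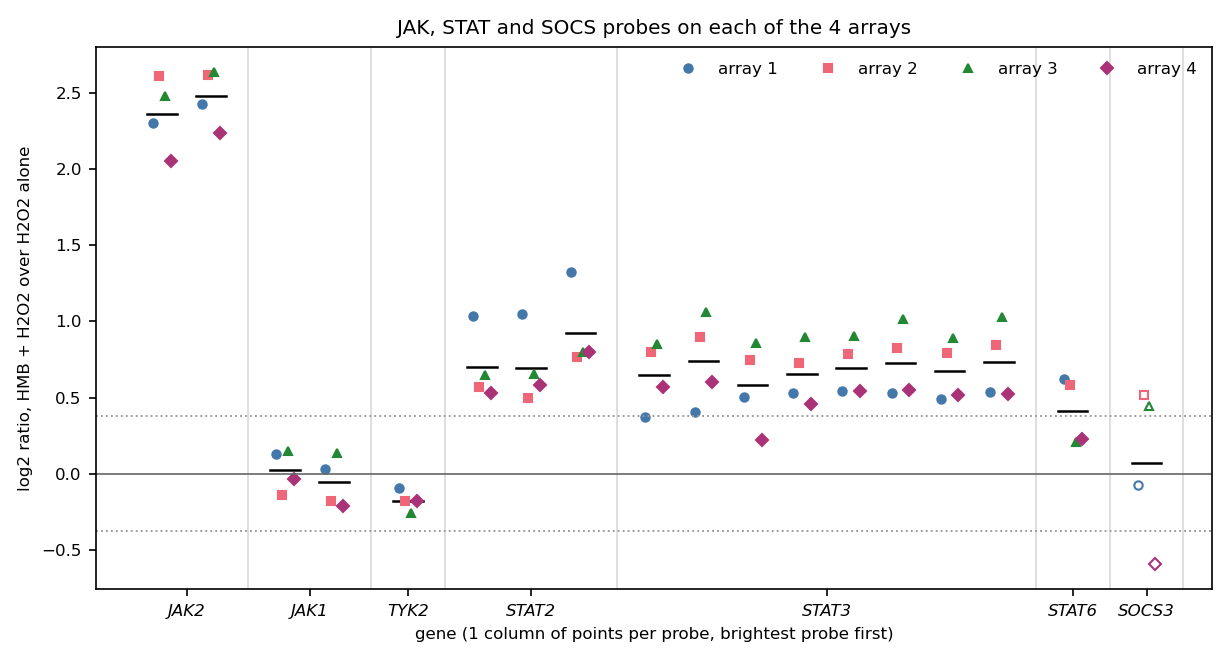
Log2 ratio of HMB-treated over control cells (y axis) for each probe of JAK2, JAK1, TYK2, STAT2, STAT3, STAT6 and SOCS3 (x axis, brightest probe first). Each point is 1 of 4 arrays, the black lines are means, open points are the untested SOCS3 probe and the dotted lines are an FC of 1.3. Both JAK2 probes lie above 2 on every array, the STAT probes lie above 0, and JAK1 and TYK2 lie between the dotted lines.

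Among the kinases, JAK2 rose about 5-fold and JAK1 did not change beyond its spread. JAK2 passes on the signals of growth hormone, erythropoietin, interferon gamma and several interleukins. Its brighter probe read 177, 155, 245 and 231 in the control channel of arrays 1 to 4 and 873, 949, 1368 and 959 in the HMB channel (normalized signal). The lowest HMB-treated value thus lay above the highest control value. The log2 ratios were 2.31, 2.61, 2.48 and 2.05, with a mean of 2.36 ± 0.24 (SD, n = 4), a 5.14-fold rise with limma's adjusted p of 1.76e-05. The second JAK2 probe gave 2.43, 2.62, 2.64 and 2.23, with a mean of 2.48 ± 0.19 and limma's adjusted p of 7.46e-06. Array 4 was lowest with both probes. Of all tested probes, 1.48% had a higher mean ratio than the brighter JAK2 probe.

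JAK1 serves the receptors of interferons and of the interleukin 6 family. Its brighter probe read 435, 408, 464 and 413 in control cells and 477, 370, 516 and 404 in HMB-treated cells, so the channels overlapped. The log2 ratios were 0.13, -0.14, 0.15 and -0.03, higher on 2 arrays and lower on the other 2. The mean was 0.03 ± 0.14 (SD, n = 4; limma's adjusted p = 0.792). The second JAK1 probe, whose sequence is shown above, had a mean of -0.06 ± 0.17 (limma's adjusted p = 0.603).

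TYK2, the kinase of the interferon alpha and beta receptor and of the interleukin 12 receptor, was the dimmest tested member, with signals from 44.2 to 69.8 in control and from 39.4 to 58.3 in HMB-treated cells. Its log2 ratios were -0.09, -0.18, -0.26 and -0.18, below 0 on all 4 arrays. The mean was -0.18 ± 0.07 (SD, n = 4), short of the FC threshold and of the p threshold (limma's adjusted p = 0.0562).

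**Figure D2:**
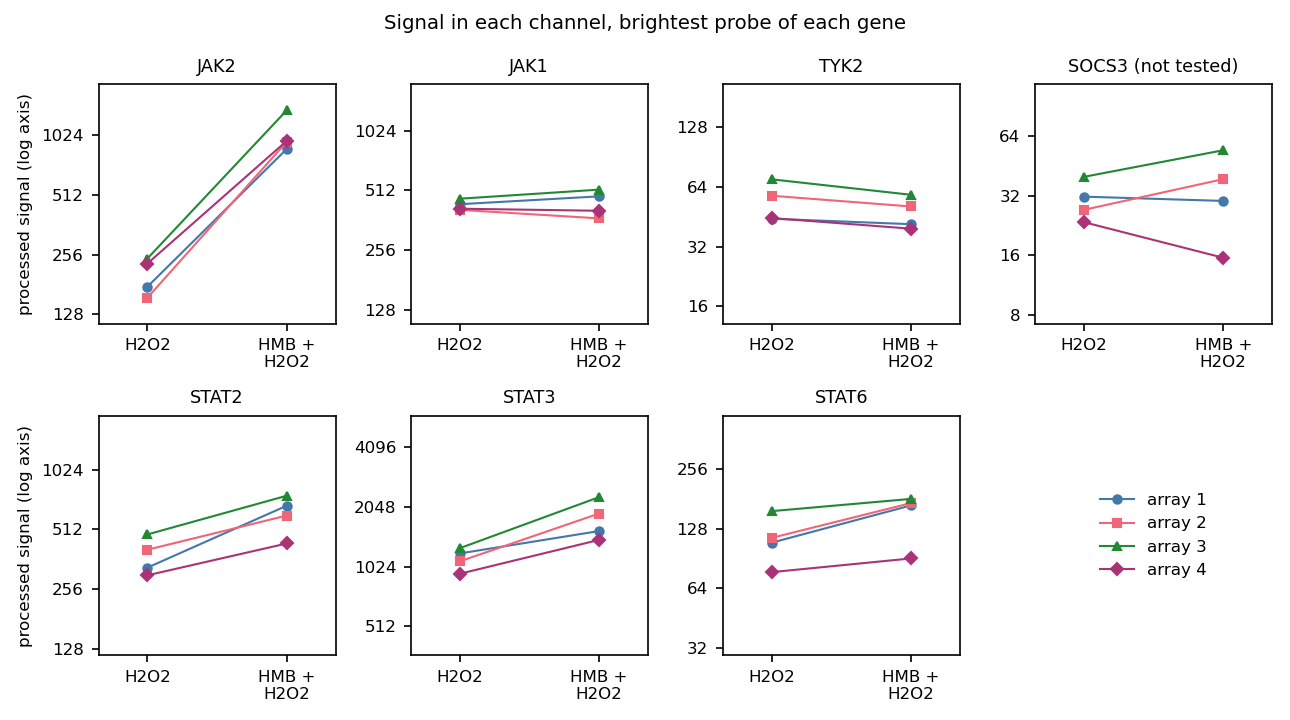
Normalized signal of the brightest probe of each gene (y axis, log scale with the same number of doublings in each panel) in control (H2O2) and HMB-treated (HMB + H2O2) cells. Each line joins the channels of 1 array. The JAK2 lines rise by about 5-fold, those of STAT2, STAT3 and STAT6 rise less, those of JAK1 stay nearly level, and the SOCS3 lines go both ways.

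The 3 tested STAT genes were all higher, each by less than 2-fold at its brightest probe. STAT2 read 329, 405, 483 and 301 in control cells and 675, 602, 758 and 435 in HMB-treated cells. HMB-treated cells were higher on each array, although the ranges overlapped because array 4 was dim in both channels. The log2 ratios were 1.04, 0.57, 0.65 and 0.53, with a mean of 0.70 ± 0.23 (SD, n = 4; 1.62-fold, limma's adjusted p = 0.00217). The other STAT2 probes had means of 0.70 and 0.92. Array 1 gave the highest ratio with all 3 probes, from 1.04 to 1.33, against 0.50 to 0.80 on the other arrays.

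STAT3 was read by 8 probes at 3 places of its transcript, which makes it the member with the most readings. All 8 were called, with means from 0.58 to 0.74 and limma's adjusted p from 0.00125 to 0.00719. At the brightest probe, control cells read 1193, 1088, 1268 and 942 and HMB-treated cells 1547, 1895, 2292 and 1396, so that the channels did not overlap. The log2 ratios were 0.37, 0.80, 0.85 and 0.57, with a mean of 0.65 ± 0.22 (SD, n = 4; 1.57-fold). The upstream probe gave 0.58 ± 0.28, and the 5 shifted probes shown above gave 0.65 to 0.73. Array 3 was highest with all 8 probes. Array 1, the highest for STAT2, was the lowest for 5 of the 8 STAT3 probes, and array 4 was the lowest for the other 3.

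STAT6 read 109, 115, 157 and 77.2 in control cells and 167, 172, 181 and 90.5 in HMB-treated cells. The log2 ratios were 0.62, 0.58, 0.20 and 0.23, so arrays 1 and 2 gave larger rises than arrays 3 and 4. The mean was 0.41 ± 0.22 (SD, n = 4; 1.33-fold), close to the FC threshold, with limma's adjusted p of 0.0146. Without array 1 the ratio was 0.34 (adjusted p = 0.0516), and without array 2 it was 0.35 (adjusted p = 0.0575), neither of which was called. The STAT5B probe was not well above background in either channel on any array, so it gave no ratio.

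With limma's treat, which tests for a rise beyond an FC of 1.3, 6.25% of all tested probes were called as higher and 5.19% as lower. By its brightest probe JAK2 was then the one member gene called, and the brightest probes of STAT2 and STAT3 had an adjusted p of 0.066 and 0.103. Of the 17 tested member probes, 5 were called. JAK2 has 2 probes, so less bright probes of other members passed as well.

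SOCS3, an inhibitor that STAT3 itself induces, stood well above background on only 2 of the 4 arrays, in Cy3 as in Cy5, and was therefore not tested. Its signals were 31.6, 27.1, 39.8 and 23.5 in control cells and 30.1, 38.7, 54.2 and 15.6 in HMB-treated cells. The log2 ratios of -0.07, 0.51, 0.45 and -0.60 went both ways, with a mean of 0.07 ± 0.52 (SD, n = 4). A direction for SOCS3 was thus not detectable at this signal.

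Set side by side, 1 of 3 kinases and 3 of 3 tested STAT genes were higher, and neither SOCS gene could be tested. The median log2 ratio of the kinases was 0.13, -0.14, 0.15 and -0.03 on arrays 1 to 4, and that of the STAT genes was 0.62, 0.58, 0.65 and 0.53. The kinase median is the value of JAK1 on each array, and it does not describe JAK2. In order of mean log2 ratio the members ran JAK2, STAT2, STAT3, STAT6, JAK1 and TYK2. STAT2 and STAT3, and STAT3 and STAT6, differed by less than the SD of their difference.

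Within the classes, 6 pairs of genes were compared by an exact 2-sided sign-flip permutation test over the 4 arrays, whose smallest possible p is 0.125, so no pair could pass 0.05. JAK2 exceeded JAK1 by 2.34 ± 0.30 (SD, n = 4; 2.09 to 2.75 over arrays) and TYK2 by 2.54 ± 0.27 (2.23 to 2.79), on the log2 scale. JAK1 exceeded TYK2 by 0.20 ± 0.16, from 0.04 to 0.41, also on all 4 arrays. Each of these 3 differences reached the smallest exact p of 0.125 (0.25 adjusted over the 6 pairs). STAT2 and STAT3 differed by 0.05 ± 0.42, from -0.23 to 0.66, with STAT2 ahead on array 1 alone. STAT2 exceeded STAT6 by 0.29 ± 0.21, from -0.01 to 0.44 (exact p = 0.25), and STAT3 exceeded STAT6 by 0.24 ± 0.37, from -0.25 to 0.65 (exact p = 0.375).

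The other genes of the pathway were taken from lists by role, in all 99 genes, of which 49 were tested, 20 were higher and 3 were lower. Over all gene names tested, 12.3% were higher and 16.3% were lower, and these shares also stand beside each role and the cell type markers below. A gene could be tested through the channel in which it was high. With both channels required above background on every array, 38 of the pathway genes were tested, 14 were higher and 1 was lower. Of all 22653 probes tested with this filter, 2546 were higher and 3324 were lower. Of 23 ligands, 7 were tested, 4 were higher and 1 was lower, with a median log2 ratio of 0.38 against -0.06 over all gene names tested. Interleukin 6, which signals through JAK1 and STAT3, had log2 ratios of 4.53, 4.35, 4.41 and 3.99 (mean 4.32 ± 0.23, SD, n = 4; limma's adjusted p = 1.60e-06). IFNB1, the interferon beta that signals through JAK1, TYK2 and STAT2, had 2.14, 3.88, 4.70 and 2.95 (mean 3.42 ± 1.11; limma's adjusted p = 0.000924). Its control signal was well above background on 1 of 4 arrays, so the size of this rise is uncertain, and it was 0.63 with normexp and 1.00 without background correction. The 1 ligand called as lower was IL13, which signals to STAT6, with -0.97, -1.05, -0.59 and -0.93 (mean -0.88 ± 0.20; limma's adjusted p = 0.000611), and its HMB signal was well above background on 2 of 4 arrays. No ligand was called as lower with normexp or without background correction. IL15, a cytokine that muscle makes, rose by a mean of 1.94 ± 0.38 (limma's adjusted p = 0.000173).

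Of 29 receptors, 10 were tested, 4 were higher and none was lower, with a median of 0.24. With both channels required above background, 7 were tested and 2 were higher, and without array 3 the median was 0.11 and 1 receptor was lower. IFNAR1, a chain of the interferon alpha and beta receptor, was not called by its brightest probe (-0.21), but its second probe was called as lower (-0.45). The other chain of this receptor, IFNAR2, was called as higher with all 5 of its tested probes (0.51 to 0.60). IL6ST was not called by its brightest probe (0.24), but its second probe was called as higher (0.42). OSMR, the receptor of oncostatin M, was not well above background in control cells on any array. Its bound was at least 2.35-fold higher in HMB-treated cells (limma's adjusted p = 0.000137). The OSMR log2 ratio was 0.40 with normexp and 0.59 without background correction, both below this bound, so the size of the rise is uncertain. IL13RA1, which pairs with the interleukin 4 receptor upstream of STAT6, rose by 1.03 ± 0.20 (SD, n = 4; limma's adjusted p = 0.000321), whereas that receptor chain itself, IL4R, had a mean of -0.03 ± 0.18 and was not called. IL15RA rose by 1.00 ± 0.22 (limma's adjusted p = 0.000437). Its log2 ratio was 0.22 with normexp and 0.37 without background correction, neither of which was called, so the size of this rise is uncertain. No probe was matched to the interleukin 6 receptor or to either interferon gamma receptor chain.

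The remaining kinases, STAT proteins, IRF9 and SOCS inhibitors numbered 10 genes, of which 7 were tested and 3 were higher, with a median of 0.36. IRF9, the DNA-binding partner of STAT2, had log2 ratios of 1.82, 1.88, 1.90 and 1.50 (mean 1.78 ± 0.19, SD, n = 4; limma's adjusted p = 3.07e-05). STAT2 and IRF9 were therefore both higher on every array, with STAT2 the lower of them on each. STAT4, a STAT protein of the interleukin 12 pathway, had 3.94, 1.56, 3.81 and 2.53, with a control signal well above background on 1 of 4 arrays (mean 2.96 ± 1.13; limma's adjusted p = 0.00172). Its mean was 0.59 with normexp and 0.95 without background correction, so the size of the STAT4 rise is uncertain.

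Among the other inhibitors of the SOCS family, SOCS4 was the one called, with a mean of 0.44 ± 0.12 (SD, n = 4; limma's adjusted p = 0.00373). Its second probe had a mean of 0.06, and the call was lost with the mean over both probes. SOCS5 had a mean of 0.36 ± 0.22, CISH of -0.07 ± 0.29 and SOCS6 of -0.22 ± 0.16, and none of them was called. STAT5A, next to STAT3 and STAT5B on chromosome 11, had a mean of 0.26 ± 0.09 and missed the FC threshold. JAK3 and SOCS7 were not well above background in either channel on any array.

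Of the 16 inhibitors outside the SOCS family, 11 were tested, 2 were higher and 1 was lower, with a median of 0.12. USP18, which blocks the interferon alpha and beta receptor, had log2 ratios of 4.27, 4.19, 4.15 and 3.53 (mean 4.03 ± 0.34, SD, n = 4; limma's adjusted p = 5.35e-06). CBL, a ubiquitin ligase of activated receptors, rose by 0.52 ± 0.44, with 1.16 on array 2 and 0.18 to 0.44 on the others (limma's adjusted p = 0.0403). The second CBL probe was also called as higher (0.91). Without array 2 the brightest CBL probe was 0.30 (adjusted p = 0.0461), under the FC threshold. Its call was also lost without array 3 (0.54, adjusted p = 0.106) and without array 4 (0.59, adjusted p = 0.062). PIAS3, a protein inhibitor of STAT3, fell by 0.43 on the log2 scale (SD 0.12, limma's adjusted p = 0.00391). Its second probe had a mean of -0.26 and was not called, and without array 1 PIAS3 was -0.37 and lost its call. The other 8, among them PIAS1, PIAS2, PIAS4, PTPN1, PTPN2 and PTPN11, lay between -0.27 and 0.31 and were not called.

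Of 21 target genes of STAT proteins, 14 were tested, 7 were higher and 1 was lower, with a median of 0.41. IRF7, which amplifies the interferon response, had a mean of 3.45 ± 0.23 (SD, n = 4; limma's adjusted p = 3.27e-06). IRF1, a transcription factor of the interferon response, had a mean of 1.74 ± 0.11 (limma's adjusted p = 1.22e-05). BCL2L1, a survival gene downstream of STAT3 and STAT5, had 0.32, 1.06, 2.06 and 0.63 (mean 1.02 ± 0.75; limma's adjusted p = 0.0215), with a control signal well above background on 2 of 4 arrays. Without array 2 its call was lost (1.00, adjusted p = 0.0663). The one target called as lower was IGF1, a growth factor induced by STAT5. IGF1 was not well above background in HMB-treated cells on any array. Its bound was at least 1.76-fold lower there (limma's adjusted p = 0.000567 for the measured ratio). No target was called as lower with normexp or without background correction, so the size of the IGF1 fall is uncertain.

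**Figure D3:**
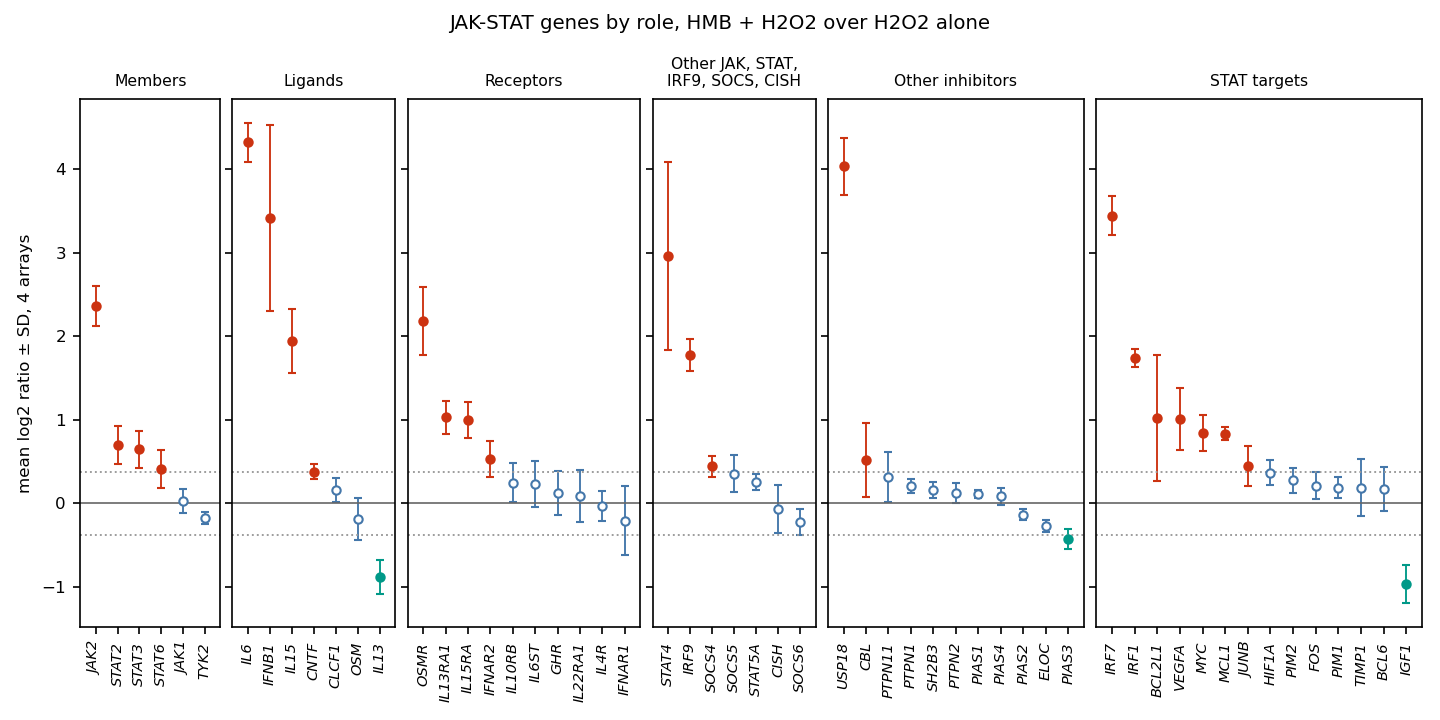
Mean log2 ratio of HMB-treated over control cells (y axis, bars are the SD over 4 arrays) for every tested gene of each role (x axis), by its brightest tested probe. Filled red points were called as higher, filled green points as lower, open points were not called, and dotted lines mark an FC of 1.3. The points of OSMR and IGF1 rest on a channel at background, so the text gives bounds (at least 2.35-fold higher and 1.76-fold lower). The OSMR ratio fell below its bound with normexp and without background correction, and no target was called as lower in these settings. Ligands (4 of 7), receptors (4 of 10) and targets (7 of 14) hold members called as higher, and most inhibitors lie between the dotted lines.

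Direction in these lists depends on the scaling: with the spike-in RNA the medians became -0.11 for ligands, -0.25 for receptors, -0.13 for the remaining kinases, STAT and SOCS genes, -0.37 for other inhibitors and -0.08 for targets, where the median of all tested probes was -0.56. Higher genes then numbered 3 ligands, 3 receptors, 2 of the remaining kinases, STAT and SOCS genes, 1 other inhibitor and 3 targets. Lower genes numbered 2 ligands, 3 receptors, 2 of the remaining kinases, STAT and SOCS genes, 4 other inhibitors and 1 target. Together 12 of the 49 tested genes were higher and 12 were lower, against 5.05% and 70.2% of all tested probes.

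Markers of the cell types that such a culture can hold were read on the same arrays, and their directions differed between cell types. Of 11 skeletal muscle markers, 8 were tested, all well above background in both channels on every array, and 6 were lower and 0 higher. Their summed signal ranged from 169656 to 191451 in control and from 64754 to 102980 in HMB-treated cells. Of 6 fibroblast markers, 5 were tested and 4 were higher, with summed signals of 283648 to 344942 and 274008 to 426668. Most of this sum came from COL1A2 (280814 in control cells on array 1), which was not called (-0.23), so the sum does not describe the 4 higher markers. With the spike-in scaling, 7 skeletal muscle markers were lower, and of the fibroblast markers 1 was higher and 1 was lower. Of 10 leukocyte markers, 2 were tested and 1 was higher (CD68), whereas CD3E, CD79A, ITGAM, LYZ and AIF1 were not well above background on any array, and no probe was matched to PTPRC. None of 6 endothelial markers could be tested, and 4 were never well above background. The part of these cell types in the ratios of JAK2, STAT2, STAT3 and STAT6 was not tested.

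JAK2 was called as higher under all 16 alternative ways of processing, with log2 ratios from 1.68 to 2.47. STAT2 and STAT3 were called as higher under 14 of 16 each, with limma's treat and the spike-in scaling as the exceptions. STAT6 kept its call under 8 of 16, and its ratio became -0.08 with the spike-in scaling. JAK1 and TYK2 were called under the spike-in scaling alone, as lower, with -0.46 and -0.66.

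**Figure D4:**
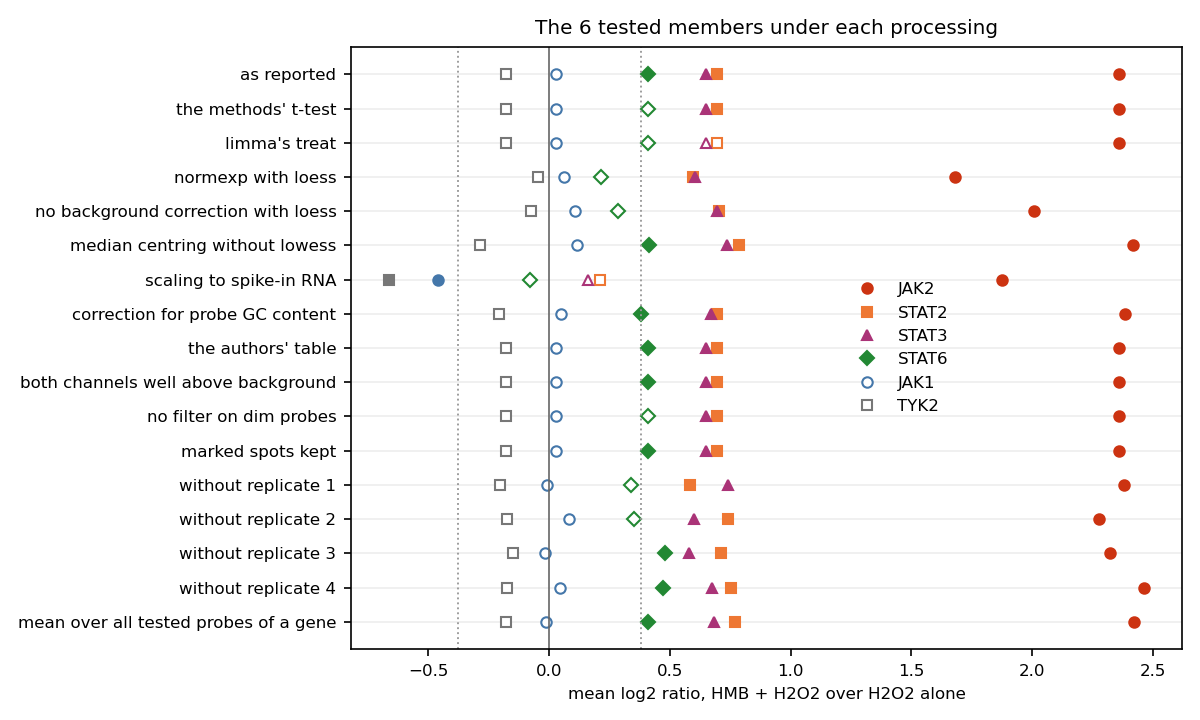
Mean log2 ratio (x axis) of the 6 tested members under each way of processing the arrays (y axis). Filled points were called and open points were not, and dotted lines mark an FC of 1.3. JAK2 stays between 1.68 and 2.47, while the spike-in scaling moves every gene to the left by the same amount.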

How the data were processed

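The members and the gene lists were chosen with earlier results of these data known, and no p is given over a list. A gene of the pathway is not reported here and is left out of the list counts. Per the file headers, the arrays carry 60-base probes annotated on EquCab1 and were read with Feature Extraction 10.10.1.1. The deposited intensity values are mean spot, local background, background-subtracted and dye-normalized signals of each channel. The authors' log10 values, in the scanner files and in a table, are ratios of Cy5 over Cy3 signal, with linear and lowess dye normalization applied to each array, and the table differed from the scanner files by at most 0.00013 on the log2 scale. The log2 ratios were computed here from the deposited log10 ratios. The files set a floor for dim signals, so the size of ratios of dim probes is uncertain. For IFNB1, OSMR and STAT4 the deposited ratios were larger than those with normexp or without background correction.

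Spots marked as non-uniform or population outliers were left out (13 to 35 per array), no spot was saturated, and 55.2% to 61.8% of spots per array and channel were well above background. The number of arrays limits the precision. Ratios correlated between arrays with r from 0.84 to 0.92 across probes, which are not independent replicates. The test was limma 3.58.1 (R 4.3.3) with an intercept, empirical Bayes moderation and p-values adjusted by Benjamini-Hochberg for all tested probes, and it was tested on simulated data. A gene was represented by its brightest tested probe. Where a channel was at background on every array, a bound was given: the brighter channel's mean against the mean of, per array, the higher of the dim probe's signal and the lowest signal well above background, both on the log2 scale after Aquantile normalization, and open to dye bias. Of each list, the text names the 3 called genes with the largest ratios of 1 sign on all arrays. It also names all tested genes of the remaining kinases, STAT and SOCS genes. IGF1, IL13, IL4R, IFNAR1, IFNAR2, IL6ST, COL1A2, CD68 and the genes at background were named after their values were seen. Symbols came from the files, and otherwise from RefSeq identifiers (1684 probes by gene ID, 1159 by accession), synonyms (71), a dropped hyphen (26) or the description (2), whereas 17723 probes kept the name in the files. Alternatives were the methods' t-test, treat, normexp (offset 50) or no background correction with loess, median centring, spike-in scaling, a GC correction, the authors' table, other filters, the mean over the probes of a gene, and each array left out.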

Additional observations from a re-analysis of the deposited data

Results flagged for a closer look

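Within groups of 4 arrays, 36 probes were examined for 1 array far from the other 3, and 2 were found. Chance gives about 1 in 20 groups. A STAT2 probe read 1.33 on array 1 and 0.76 to 0.80 on the others, and its mean without array 1 was 0.79. USP18 read 3.53 on array 4 and 4.15 to 4.27 on the others, with a mean of 4.20 without array 4.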

How the results depend on the processing

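The counts of called probes changed by over 1.5 times from 7046 (42.5% of them higher) in 4 settings: 2822 with limma's treat (54.6% higher), 3539 with normexp (55.0% higher), 4440 without background correction (60.1% higher) and 18571 with the spike-in scaling (6.71% higher). Member probes called fell from 14 to 5 with treat and to 6 with the spike-in scaling (3 higher, 3 lower), and member genes called from 4 to 1 with treat. With the spike-in scaling, JAK1 was -0.46, STAT6 -0.078 and SOCS4 -0.046, each opposite in sign to the reported ratio, as were the uncalled SOCS5 (-0.13) and STAT5A (-0.23), and the median of all tested probes shifted from -0.07 to -0.56. The difference of JAK2 and JAK1 was 1.62 with normexp and 1.90 without background correction, that of JAK2 and TYK2 1.73 and 2.08, and that of JAK1 and TYK2 0.40 with median centring. With 1 array left out, 6667 to 7364 probes, 13 to 14 member probes and 3 to 4 member genes were called. Causes were not tested. STAT6 also lost its call with the methods' t-test, normexp, no background correction and no filter. CBL lost its call in 10 settings, BCL2L1 in 7, PIAS3 in 6, SOCS4 in 5 with its change of sign, and IL15RA in 2. None of the 49 tested genes of the pathway lists was called as lower with normexp or without background correction. The ratio within an array already pairs treated and control RNA; no paired analysis was possible beyond it because there is 1 group of arrays. Dim signal limits SOCS3 and STAT5B.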
